A study of Schistocerca gregaria with 20 samples.

Results

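Pleuropodia are paired glandular appendages on the first abdominal segment of many insect embryos, which secrete before hatching and then degenerate. Here 4 transcripts of carbohydrate enzymes were followed in them, out of 12988 transcripts measured in embryos of the desert locust Schistocerca gregaria. The 4 were taken by their transcript IDs. SgreTa0001321 was annotated by the study as a myrosinase 1-like glycosyl hydrolase, SgreTa0007886 as alpha-N-acetylgalactosaminidase, SgreTa0000425 as 6-phosphofructo-2-kinase and SgreTa0013377 as phosphoenolpyruvate carboxykinase. The study had listed them because they were abundant and higher in pleuropodia than in legs at days 10 to 12, so their values at those days are given as a description with no test.

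The tissues were pleuropodia and the hind legs of the third thoracic segment of the same ages, from an untreated gregarious-phase colony with eggs kept at 1 incubation temperature. Each tissue had 1 library at each of 10 ages, day 4, 5, 6, 7, 8, 8-9, 10, 11, 12 and 13, which makes 10 pleuropodia and 10 leg libraries. Each library pooled many appendages. There was therefore no replicate at a single age, and groups of 3 neighbouring ages (days 4-6, 7-9 and 10-12) were compared in place of replicates, so that the spread within a group holds change with age as well as variation between samples. Levels are given in RPKM, the number of mapped reads corrected for transcript length and for the size of the library, which allows levels of different transcripts to be set side by side.

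The read depth recovered from the RPKM steps was 15186075 to 36027338 reads in pleuropodia and 27890837 to 36884141 reads in legs, and the smallest library was that of day 8-9 pleuropodia. The day 8-9 pair was sequenced at another centre than the other libraries, in both tissues. The leg gene dac was at 0 to 3.31 RPKM in pleuropodia and at 9.98 to 99.4 RPKM in legs, with no overlap, and the Hox gene abd-A was at 0.273 to 17.2 RPKM in pleuropodia and at 0 to 0.272 RPKM in legs. The Hox gene Ubx was higher in pleuropodia on days 4 and 5 (ratios 2.99 and 2.63), at 0.924 of legs on day 6 and lower in pleuropodia at every later age (ratios 0.0364 to 0.238). Dll, a gene of both appendages, was at 5.37 to 42.3 RPKM in pleuropodia and at 1.91 to 63.0 RPKM in legs, and on days 6 to 8-9 its level in pleuropodia was 0.224 to 0.420 times that in legs. In bulk tissue fewer cells of a type cannot be told apart from less RNA per cell.

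Glycosidases remove sugars from polysaccharides, glycoproteins and glycolipids. Myrosinases belong to a family of beta-glucosidases and are best known from plants and from insects that feed on them, where they cleave glucosinolates. Alpha-N-acetylgalactosaminidase takes terminal N-acetylgalactosamine off glycoproteins and glycolipids, and in mammals it works in the lysosome. The other 2 enzymes act inside the cell, on the breakdown and the making of glucose. 6-Phosphofructo-2-kinase makes fructose 2,6-bisphosphate, the signal that switches on glycolysis and holds back the making of glucose, whereas phosphoenolpyruvate carboxykinase turns oxaloacetate into phosphoenolpyruvate, an entry step to the making of glucose and of glycerol for lipids.

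The 4 transcripts became higher in pleuropodia than in legs at different ages. 6-Phosphofructo-2-kinase and alpha-N-acetylgalactosaminidase had parted between the tissues by day 6, phosphoenolpyruvate carboxykinase was lower in pleuropodia until day 7 and higher from day 8, and the myrosinase 1-like transcript was under 1 RPKM in pleuropodia until day 7, though above legs from day 6, and was among the abundant transcripts there only from day 10. Together they took 0.0509% of the reads of day 4 pleuropodia, 0.145% at day 6, 0.816% at day 7 and 2.42% at day 10. In legs they took between 0.0291% and 0.0659% of the reads at every age.

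**Figure D1:**
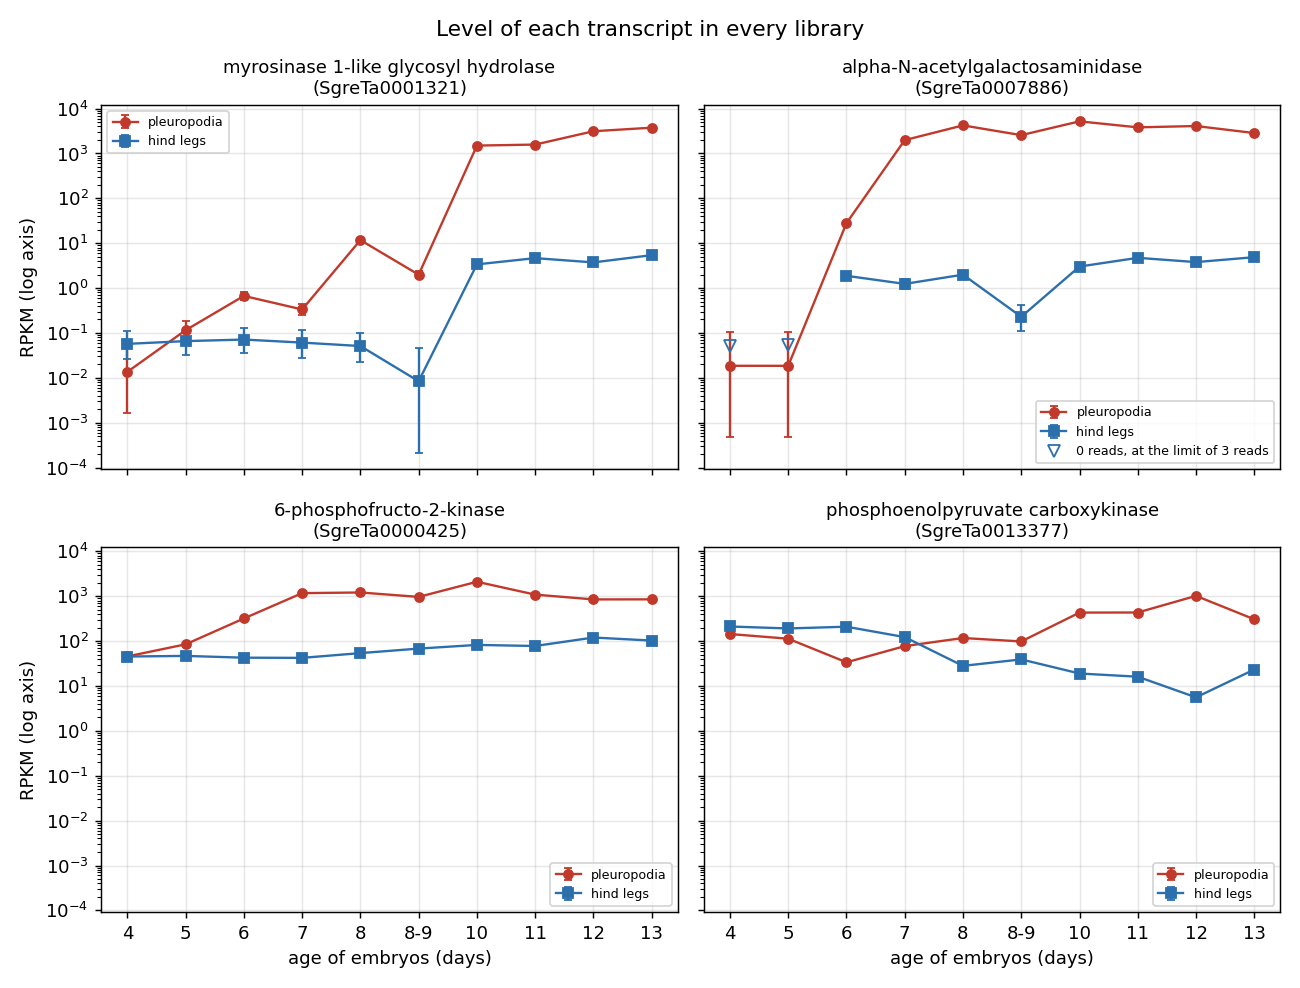
RPKM (log axis) of the 4 transcripts against embryo age in days, pleuropodia as red circles and hind legs as blue squares, 1 library a point, with bars for the 95% counting interval. Open triangles stand for leg libraries with 0 reads, drawn at the level of 3 reads. The pleuropodia points lie above the leg points from day 5 for 6-phosphofructo-2-kinase, from day 6 for alpha-N-acetylgalactosaminidase and from day 8 for phosphoenolpyruvate carboxykinase, and the myrosinase 1-like transcript reaches 1499.9 RPKM at day 10.

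Of the 2 glycosidases, alpha-N-acetylgalactosaminidase was the earlier. In pleuropodia it was at 0.0186 RPKM on day 4 and 0.0186 RPKM on day 5, each a single read, then at 28.0 RPKM on day 6. In legs it had 0 reads on days 4 and 5, which allows up to 0.0521 and 0.0540 RPKM at 3 reads, and 1.88 RPKM on day 6. Both tissues thus lay at or under the limit of detection on the first 2 days, and no ratio was taken there. On day 6 the pleuropodia level was 14.9 times that of legs (95% exact counting interval 12.2 to 18.3). Such intervals cover counting error only, since reads amplified by PCR are not independent molecules and there was 1 library a tissue.

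The steepest step of alpha-N-acetylgalactosaminidase with enough reads on both sides came next. Pleuropodia of days 7, 8 and 8-9 had 1987, 4224 and 2564 RPKM, against 1.24, 1.99 and 0.230 RPKM in legs of the same ages. The day 7 level was 70.9 times that of day 6 within pleuropodia, and by day 8 the transcript was the 7th most abundant of the library. The group means were 2925 ± 1161 RPKM in pleuropodia and 1.16 ± 0.885 RPKM in legs (SD, n = 3 each).

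At days 10, 11, 12 and 13 alpha-N-acetylgalactosaminidase had 5202, 3824, 4092 and 2852 RPKM in pleuropodia. In legs it had 3.03, 4.73, 3.80 and 4.89 RPKM. The pleuropodia level was thus highest on day 10 and lower in each later library, while every leg value from day 10 on exceeded every earlier leg value. The tissue ratio was highest on day 8-9, at 11156 (6066 to 23266), where the legs had only 10 reads, and 583 (513 to 667) on day 13.

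The myrosinase 1-like transcript came on last. In pleuropodia it had 0.0136, 0.115 and 0.671 RPKM on days 4, 5 and 6, from 2, 17 and 103 reads. In legs it had 0.0573, 0.0659 and 0.0714 RPKM on those days, from 9, 10 and 11 reads. On days 4 and 5 the counting intervals of the tissue ratio included 1 (0.0250 to 1.15 and 0.757 to 4.28), and on day 6 the ratio was 9.39 (5.04 to 19.4).

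On days 7, 8 and 8-9 the myrosinase 1-like transcript had 0.334, 11.8 and 1.99 RPKM in pleuropodia. The legs had 0.0611, 0.0512 and 0.00841 RPKM, from 9, 8 and 1 reads. The pleuropodia values spread over more than an order of magnitude and did not follow age, the day 8-9 value coming from the library of another centre. Only 2 of the 6 libraries reached 1 RPKM, so the transcript did not enter the test of that period.

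At day 10 the myrosinase 1-like transcript was at 1499.9 RPKM in pleuropodia, 753 times its day 8-9 level there (633 to 901), and it was at 1580.3, 3131 and 3760.0 RPKM on days 11, 12 and 13. The legs had 3.38, 4.66, 3.74 and 5.42 RPKM. The leg transcript thus also stepped up between day 8-9, with 1 read, and day 10, with 522 reads. Both steps start from the day 8-9 pair, which was sequenced at another centre and held 129 reads of the transcript in pleuropodia. On day 8 the myrosinase 1-like transcript was at 11.8 RPKM in pleuropodia and at 0.0512 RPKM in legs. In pleuropodia it went on to the 15th most abundant transcript on day 13, the age at which the organs degenerate, when alpha-N-acetylgalactosaminidase was at its lowest since day 8-9 and ranked 25th.

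The balance of the 2 glycosidases within a library does not depend on how libraries are scaled to each other. In pleuropodia the myrosinase 1-like level was 0.000168 times that of alpha-N-acetylgalactosaminidase on day 7, 0.00278 times on day 8 and 0.000777 times on day 8-9. It was 0.288 times on day 10, 0.413 on day 11, 0.765 on day 12 and 1.32 on day 13, so the order of the pair turned at the last age. In legs, where both stayed under 6 RPKM, the ratio was 0.0492, 0.0257 and 0.0366 on days 7, 8 and 8-9. Those leg values rest on 9, 8 and 1 reads of the myrosinase 1-like transcript. The leg ratio also stepped up, to 1.12 on day 10, and lay between 0.984 and 1.12 on days 10 to 13 with no further climb.

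Of the sugar metabolism enzymes, 6-phosphofructo-2-kinase started at the same level in both tissues. On days 4, 5 and 6 pleuropodia had 45.6, 84.9 and 319.9 RPKM, and legs had 45.4, 46.9 and 42.8 RPKM. The ratio was 1.01 on day 4 (0.972 to 1.04), 1.81 on day 5 (1.76 to 1.87) and 7.48 on day 6 (7.29 to 7.68). The leg values hardly moved, with a mean of 45.0 ± 2.08 RPKM (SD, n = 3), while each pleuropodia value was above the one before.

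On days 7, 8 and 8-9 6-phosphofructo-2-kinase had 1173, 1213 and 967 RPKM in pleuropodia, against 42.4, 54.1 and 68.2 RPKM in legs. The pleuropodia mean was 1118 ± 132 RPKM and the leg mean 54.9 ± 12.9 RPKM (SD, n = 3 each). The pleuropodia then had 2103 RPKM on day 10 and 1086, 850.2 and 853 RPKM on days 11, 12 and 13. The legs had 82.3, 77.9, 120.3 and 103 RPKM on those days. The ratio of the tissues in RPKM was largest on day 7, at 27.7 (27.0 to 28.4), but with the libraries scaled for composition it was largest on day 10, at 39.2, against 30.6 on day 7. On day 12 it was 7.07 (6.95 to 7.18) in RPKM and 9.28 with that scaling. In RPKM the pleuropodia level was lower and the leg level higher on day 12 than on day 7. The scaling divides the pleuropodia level by 1.12 on day 7 and by 0.635 on day 12, which reverses the order of the pleuropodia levels.

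Phosphoenolpyruvate carboxykinase differed from the other 3 in that it was first lower in pleuropodia. On days 4, 5, 6 and 7 pleuropodia had 143.9, 113, 33.7 and 77.5 RPKM, and legs had 212, 192, 210 and 123 RPKM. The leg level was 1.47, 1.69, 6.21 and 1.59 times the pleuropodia level on those days, the widest gap falling on day 6 with the lowest pleuropodia value of all ages.

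From day 8 the order was turned round. Phosphoenolpyruvate carboxykinase had 117 and 98.4 RPKM in pleuropodia of days 8 and 8-9, against 28.1 and 39.2 RPKM in legs. On days 10, 11, 12 and 13 it had 432, 434, 1020.1 and 306 RPKM in pleuropodia and 19.0, 16.1, 5.59 and 23.3 RPKM in legs. From days 8 and 8-9 to days 10 to 12 the values rose in pleuropodia and fell in legs, and on day 13 both turned back. The day 12 level was the highest of all ages in pleuropodia and the lowest of all ages in legs, which gave that day a ratio of 183 (165 to 202), against 27.0 (25.5 to 28.5) on day 11 and 13.1 (12.5 to 13.8) on day 13.

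**Figure D2:**
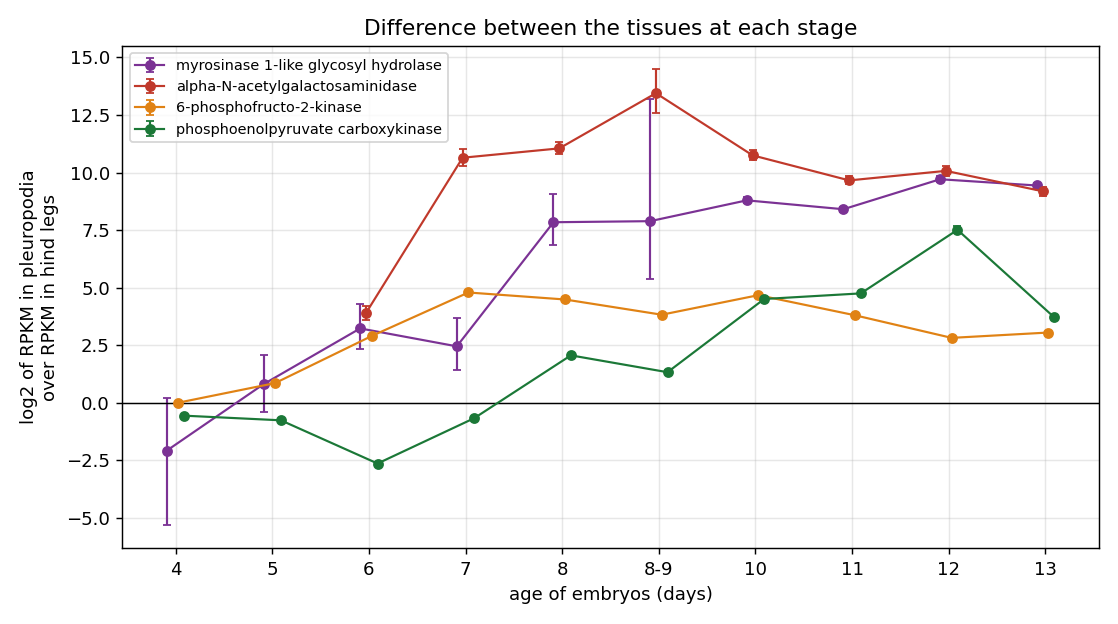
Log2 of the RPKM in pleuropodia over the RPKM in hind legs against embryo age in days, 1 line a transcript, each point 1 library of each tissue, with bars for the 95% exact counting interval. No point is drawn for alpha-N-acetylgalactosaminidase on days 4 and 5, where legs had 0 reads. Phosphoenolpyruvate carboxykinase lies below 0 on days 4 to 7 and above it from day 8, at a ratio of 183 on day 12.

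A transcript was counted as higher or lower at a single age where it differed by more than 2-fold with over 10 RPKM in the higher tissue. Of the 4 transcripts, none was so called on day 4, where 0.316% of all 12988 transcripts were higher and 0.47% lower in pleuropodia, nor on day 5 (2.28% higher and 0.893% lower). On day 6, 2 were higher in pleuropodia and 1, phosphoenolpyruvate carboxykinase, was lower, where 5.78% of all were higher and 4.84% lower. On day 7, 2 were higher (8.41% of all higher, 7.98% lower), on day 8 all 4 (7.56% higher, 12.2% lower) and on day 8-9 3 (8.28% higher, 11.4% lower), the myrosinase 1-like transcript falling under 10 RPKM. All 4 were higher on days 10, 11, 12 and 13, where 8.53%, 7.96%, 7.67% and 10.3% of all transcripts were higher and 18.3%, 24.0%, 15.3% and 12.1% lower, and the choice of the 4 rests on the first 3 of these ages. Rescaling the libraries for composition changed none of the 40 calls.

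The 2 metabolic enzymes shifted against each other within each tissue. In pleuropodia the level of 6-phosphofructo-2-kinase was 0.317 times that of phosphoenolpyruvate carboxykinase on day 4 and 0.75 times on day 5. It was 9.48 times on day 6 and 15.1 times on day 7, then 10.3, 9.83, 4.86, 2.50 and 0.833 times on days 8, 8-9, 10, 11 and 12, and 2.79 times on day 13. In legs it was 0.214, 0.245, 0.204 and 0.345 times on days 4 to 7, then 1.92 and 1.74 times on days 8 and 8-9. It was 4.33, 4.84, 21.5 and 4.41 times in legs of days 10 to 13. The kinase thus led in pleuropodia from day 6 to day 11 and on day 13, and in legs from day 8 on, and on day 12 the carboxykinase led in pleuropodia while the leg ratio was the highest of all libraries.

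**Figure D3:**
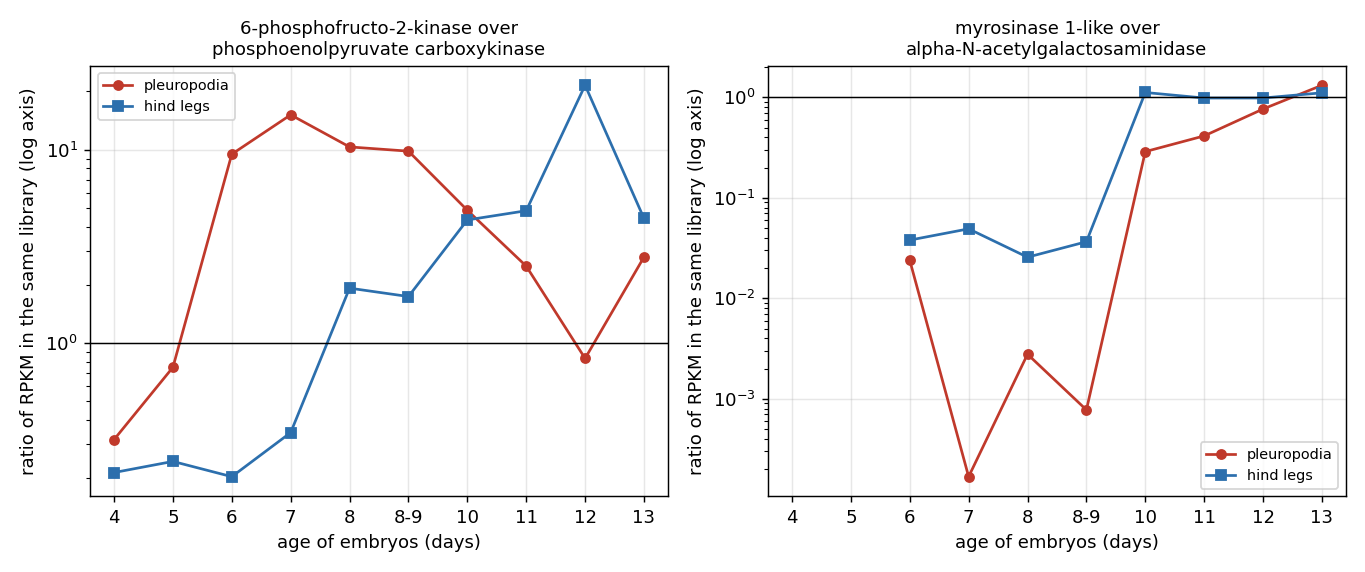
Ratio of 2 transcripts' RPKM in the same library (log axis) against embryo age in days, pleuropodia as red circles and hind legs as blue squares, for 6-phosphofructo-2-kinase over phosphoenolpyruvate carboxykinase (left) and the myrosinase 1-like transcript over alpha-N-acetylgalactosaminidase (right, not drawn on days 4 and 5, where the lower term had 3 reads or fewer). The kinase ratio in pleuropodia is 15.1 on day 7 and 0.833 on day 12, and in legs 21.5 on day 12. The glycosidase ratio in pleuropodia is 0.288 on day 10 and 1.32 on day 13.

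The periods not used to choose the transcripts were tested with limma on log2(RPKM + 0.5) after scaling for library composition, with Benjamini-Hochberg adjustment over all transcripts that reached 1 RPKM in 3 libraries. On this scale fold changes of low transcripts come out too small. The 4 were chosen as higher in pleuropodia at later ages of the same series, so their direction in these tests is not independent evidence. At days 4-6, 2 of the 4 passed that filter and neither passed the test. 6-Phosphofructo-2-kinase differed by a log2 fold change of 1.24 (SE 0.70, limma adjusted p = 0.68, unadjusted 0.12), the pleuropodia being higher on 2 of 3 days by more than the counting interval. Phosphoenolpyruvate carboxykinase differed by -1.32 (SE 0.49, limma adjusted p = 0.68, unadjusted 0.035) and was lower in pleuropodia on 3 of 3 days. Few transcripts passed in that period, 0.0504% of 9911 being higher and 0.0706% lower, and with day as a block 0 passed in limma, with 705 at an unadjusted p under 0.05.

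At days 7-9, 3 of the 4 were tested and 2 passed, where 24.8% of 10989 tested transcripts were higher and 21.7% lower in pleuropodia. Alpha-N-acetylgalactosaminidase was higher by a log2 fold change of 11.05 (SE 0.49, limma adjusted p = 1.3e-05) and 6-phosphofructo-2-kinase by 4.64 (SE 0.21, limma adjusted p = 1.3e-05), each in 3 of 3 pairs of the same age. In this period alpha-N-acetylgalactosaminidase met the filter only through its pleuropodia libraries, the day 8-9 legs being at 0.230 RPKM. The median over all tested transcripts was -0.05. Without the scaling for composition 2069 transcripts were higher and 3433 lower, in place of 2730 higher and 2384 lower, and both calls held. Phosphoenolpyruvate carboxykinase had a log2 fold change of 1.19 (SE 0.54, limma adjusted p = 0.11), with pleuropodia higher on 2 of 3 days, which does not pass. That call rested on 1 library: without the day 7 legs the value was 1.81 (limma adjusted p = 0.0074). The leg level was 210 RPKM on day 6, 123 RPKM on day 7 and 28.1 RPKM on day 8.

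The gap between the tissues itself widened from days 4-6 to days 7-9 for the same 2 transcripts, where 13.1% of 11326 transcripts had a difference that moved towards pleuropodia and 5.88% one that moved towards legs. The change was 9.82 log2 units for alpha-N-acetylgalactosaminidase (SE 1.80, limma adjusted p = 0.0040) and 3.41 for 6-phosphofructo-2-kinase (SE 0.78, limma adjusted p = 0.012). For 6-phosphofructo-2-kinase the call did not hold without the day 8-9 pair, where the value was 3.66 with a limma adjusted p of 0.051. For phosphoenolpyruvate carboxykinase the change was 2.51 (SE 0.80, limma adjusted p = 0.052), and leaving out 1 library gave adjusted p-values from 0.013, without the day 7 legs, to 0.14, without the day 8 pleuropodia. Without the day 4 pleuropodia it also passed (0.031). With day as a block 3351 transcripts changed in either direction, in place of 2152, and the 2 calls held. Without the scaling 1075 moved towards pleuropodia and 1060 towards legs, in place of 1486 and 666.

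Within pleuropodia alone, alpha-N-acetylgalactosaminidase rose between these periods by 10.52 log2 units (SE 1.28, limma adjusted p = 0.00011) and 6-phosphofructo-2-kinase by 3.65 (SE 0.55, limma adjusted p = 0.00048), where 24.1% of transcripts rose and 21.8% fell. Without the scaling 2082 rose and 3844 fell, in place of 2730 and 2467. Phosphoenolpyruvate carboxykinase gave 0.52 (SE 0.57, limma adjusted p = 0.48) in pleuropodia, where the means of the periods were 97.7 ± 19.9 RPKM at days 7-9 and 97.0 ± 56.9 RPKM at days 4-6 (SD, n = 3 each). In legs none of the 3 tested transcripts passed, where 1.49% of transcripts rose and 0.141% fell. The values in legs were 0.70 for alpha-N-acetylgalactosaminidase and 0.25 for 6-phosphofructo-2-kinase (limma adjusted p = 0.80 and 0.85). For phosphoenolpyruvate carboxykinase the leg value was -1.99 (SE 0.57, limma adjusted p = 0.13), with leg means of 63.4 ± 51.9 RPKM at days 7-9 and 204 ± 11.1 RPKM at days 4-6 (SD, n = 3 each). Without the day 7 legs it was -2.61 (limma adjusted p = 0.031), and without the day 6 pleuropodia, which enter only the shared estimate of spread, the adjusted p was 0.043.

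At days 10-12, the libraries in which the study picked the transcripts, the log2 fold changes were 9.39 (SE 0.40) for the myrosinase 1-like transcript, 10.57 (SE 0.24) for alpha-N-acetylgalactosaminidase, 4.37 (SE 0.43) for 6-phosphofructo-2-kinase and 6.13 (SE 0.51) for phosphoenolpyruvate carboxykinase. In that period 24.7% of 11462 transcripts were higher and 20.9% lower at the same threshold. Without the scaling 1571 were higher and 3692 lower, in place of 2826 and 2393. The mean levels were 2070.4 ± 919 RPKM in pleuropodia and 3.93 ± 0.657 RPKM in legs for the myrosinase 1-like transcript, and 4373 ± 731 RPKM in pleuropodia and 3.85 ± 0.853 RPKM in legs for alpha-N-acetylgalactosaminidase (SD, n = 3 each). For 6-phosphofructo-2-kinase they were 1346 ± 666 RPKM in pleuropodia and 93.5 ± 23.3 RPKM in legs, and for phosphoenolpyruvate carboxykinase 629 ± 339 RPKM in pleuropodia and 13.6 ± 7.06 RPKM in legs (SD, n = 3 each). Alpha-N-acetylgalactosaminidase was thus the most abundant of the 4 in pleuropodia, followed by the myrosinase 1-like transcript, whose lowest value of 1499.9 RPKM lies within the range of 6-phosphofructo-2-kinase.

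**Figure D4:**
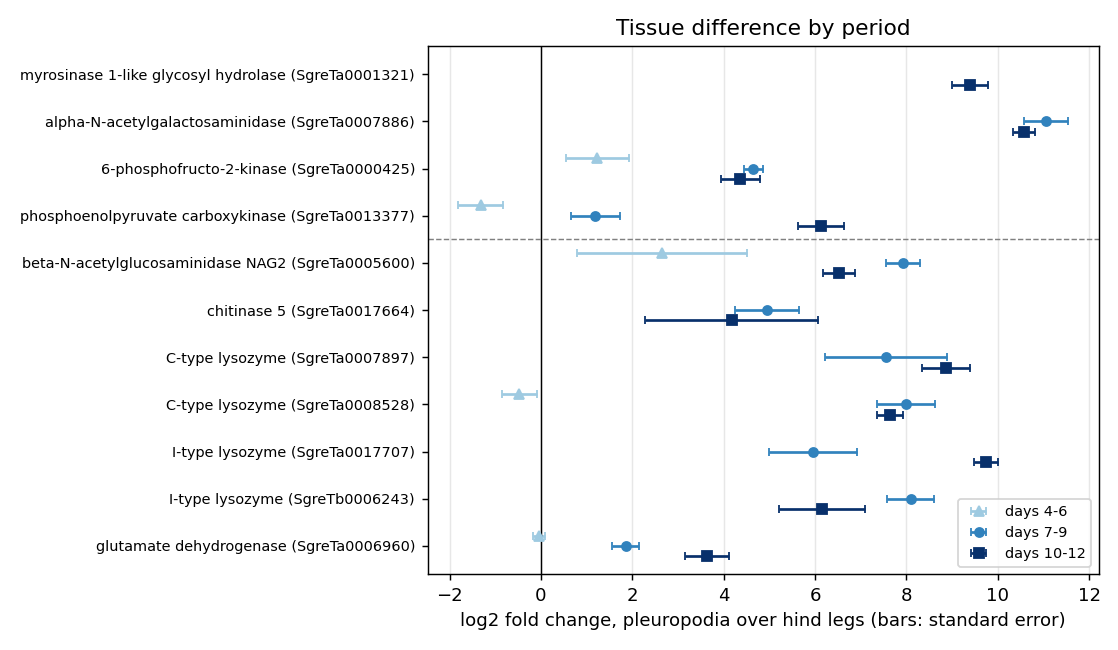
Log2 fold change of pleuropodia over hind legs from limma at days 4-6 (light triangles), 7-9 (circles) and 10-12 (dark squares), with bars for the standard error, for the 4 transcripts (above the dashed line) and for the 6 other glycoside hydrolases and glutamate dehydrogenase (below it). Transcripts that missed the filter on low values have no point in that period. At days 7-9 alpha-N-acetylgalactosaminidase lies at 11.05, 6-phosphofructo-2-kinase at 4.64 and phosphoenolpyruvate carboxykinase at 1.19.

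For comparison, 6 other glycoside hydrolases were read in the same way, namely beta-N-acetylglucosaminidase NAG2 (SgreTa0005600) and chitinase 5 (SgreTa0017664), which cut chitin, and 4 lysozymes, which cut bacterial cell walls. They too were on the study's list for days 10-12, so their direction is not independent evidence. At days 4-6, 2 of the 6 were tested and none passed. At days 7-9 all 6 were tested and all 6 were higher in pleuropodia, where 24.8% of all 10989 tested transcripts were higher. The median log2 fold change was 7.74 over the 6 and -0.05 over all tested transcripts.

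NAG2 was the hydrolase whose timing lay nearest to alpha-N-acetylgalactosaminidase. In pleuropodia NAG2 had 0.516, 2.74 and 182.8 RPKM on days 4, 5 and 6 and 819 RPKM on day 7, and in legs it had 0.356, 0.526, 1.88 and 2.93 RPKM. Its day 6 level was thus above that of alpha-N-acetylgalactosaminidase, which was 0.153 times NAG2 in pleuropodia of day 6 and 2.43 times NAG2 on day 7. From day 8 to day 13 alpha-N-acetylgalactosaminidase was 2.47 to 6.72 times NAG2 in pleuropodia.

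The 4 lysozymes were at 2.25 RPKM or less in pleuropodia of days 4 to 6 and at 84.9 RPKM or more on day 7, against 0.53 to 18.9 RPKM in legs of day 7. The myrosinase 1-like transcript, at 0.334 RPKM on day 7 in pleuropodia, was the only 1 of the 10 glycosidases and metabolic enzymes that had not passed 10 RPKM in pleuropodia by that age. Chitinase 5 followed another course, with 572 RPKM on day 6, 49.1 RPKM on day 10 and 15374 RPKM on day 13 in pleuropodia, and it was the only 1 of the 6 that was lower in pleuropodia by over 2-fold with over 10 RPKM at any age, on day 10, where legs had 166.6 RPKM. Under 10 RPKM, pleuropodia were also lower for lysozyme SgreTa0008528 on days 5 and 6, at 0.468 (0.262 to 0.812) and 0.595 (0.412 to 0.851) times the leg level, and for lysozyme SgreTa0017707 on day 6, at 0.341 (0.245 to 0.468) times.

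Glutamate dehydrogenase (SgreTa0006960), which links amino acids to the citric acid cycle, was read in the same way. Its levels on day 6 were 158 RPKM in pleuropodia and 152 RPKM in legs, and on day 7 they were 467 RPKM in pleuropodia and 159 RPKM in legs. It was higher in pleuropodia at days 7-9 by a log2 fold change of 1.85 (SE 0.30, limma adjusted p = 0.0026). That was less than for 6-phosphofructo-2-kinase in the same libraries. At days 7-9, 24.8% of all 10989 tested transcripts were higher in pleuropodia. Glutamate dehydrogenase too was on the study's list of transcripts higher in late pleuropodia, so its direction is not independent evidence.

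The likeness of patterns was measured as Pearson's r of log2(RPKM + 0.5) over the 20 libraries, which share age and tissue, and is given as a description. Among the 4, alpha-N-acetylgalactosaminidase and 6-phosphofructo-2-kinase were most alike (r = 0.978), and the other 5 pairs had r of 0.517 to 0.780. Of the 12448 transcripts compared, those nearest to alpha-N-acetylgalactosaminidase were a waterproof-like fatty acyl-CoA reductase (SgreTa0004278, r = 0.996), a chitin-binding Peritrophin-A protein (SgreTa0008851, r = 0.995) and a sensory neuron membrane protein 1-like transcript (SgreTa0009515, r = 0.994). The nearest to the myrosinase 1-like transcript was an uncharacterized protein with a DUF4773 domain (SgreTa0002988, r = 0.995). The best match of 6-phosphofructo-2-kinase reached r = 0.990 and that of phosphoenolpyruvate carboxykinase only 0.921. These matches have no name in the sources used here.

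Markers that in other insects belong to haemocytes or fat body were also higher in late than in early pleuropodia. Prophenoloxidase subunit 2 and collagen summed to 0.0220 to 1.73 RPKM in pleuropodia of days 4 to 6, 357 to 560.0 RPKM at days 7 to 8-9 and 5066 to 8627 RPKM at days 10 to 13. In legs they summed to 0 to 0.713 RPKM at days 4 to 6, 1.52 to 26.1 RPKM at days 7 to 8-9 and 79.7 to 209 RPKM at days 10 to 13. Both markers were higher in pleuropodia in all 4 of the latest ages, and collagen at days 7 to 8-9 as well. The study had listed both as abundant and higher in late pleuropodia, so their direction is not independent evidence. Prophenoloxidase had tissue ratios of 1.25 on day 8 and 0.903 on day 8-9, and the sums in pleuropodia of days 7 to 8-9 were mostly collagen. Their r with the 4 transcripts was 0.273 to 0.875 for prophenoloxidase and 0.507 to 0.945 for collagen, lowest with phosphoenolpyruvate carboxykinase for each. The part of these markers in the levels of the 4 transcripts was not tested.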

How the data were processed

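Messenger RNA from pleuropodia and hind legs was sequenced by the authors as 1 library per tissue and age. Per the labels and the methods, mapping used Bowtie2 (2.2.5, local alignment) against the study's own embryo transcriptome, and transcripts with constantly low values were removed, leaving 12988. The day 8-9 pair was read from both ends and trimmed. The labels say that 1 direction was used and the methods that mates were joined, which changes its depth. The deposited matrix is named as counts but holds RPKM made by the authors, so limma was used and no count model. A second table, of the authors' means, fold measures and probabilities at days 10-12, was not used.

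Whole reads were recovered from the RPKM steps with the shortest transcript length of at least 200 bases that fits (99.9988% of values whole within 0.05 reads, 12987 of 12988 transcripts). If a true length is a multiple of it, the reads are understated. Intervals are exact, at 95%, and the detection limit is 3 reads.

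Libraries were scaled by trimmed means of log ratios (30% of ratios and 5% of levels trimmed). Limma 3.58.1 in R 4.3.3, with a trend, was fitted on log2(RPKM + 0.5), keeping transcripts with 1 RPKM in 3 libraries, at an adjusted p of 0.05. It was also run on simulated data with independent noise of 1 common SD. Those data hold no change with age within a group, so that run does not cover it. Where libraries are compared, nothing shows separate broods, so p-values measure the spread between these samples. Libraries of the same age share a label. The correlation of their deviations from the group means was -0.02 to 0.64 over 9 ages, and a fit with day as a block was run for that pairing.

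Named were the 4 members, 6 other hydrolases, glutamate dehydrogenase, 6 marker transcripts and, for each member, the 3 transcripts most like it where the study names them. Members, lists and tests were chosen with earlier results of these data known.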

Additional observations from a re-analysis of the deposited data

Results flagged for a closer look

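The difference between the tissues changed from days 4-6 to days 7-9 by the test of that change for 2 transcripts. For alpha-N-acetylgalactosaminidase (SgreTa0007886) the log2 difference of pleuropodia over legs moved by 9.82 (SE 1.80, limma adjusted p = 0.0040). For 6-phosphofructo-2-kinase (SgreTa0000425) it moved by 3.41 (SE 0.78, limma adjusted p = 0.012), with an adjusted p of 0.051 when the day 8-9 pair was left out. Groups of 3 libraries were too small to look for single outlying libraries.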

How the results depend on the processing

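At days 4-6, 12 transcripts passed in either direction. The number was 7 with a pseudocount of 0.1, 3 with no filter on low values, 0 with day as a replicate block and 86 in 1 fit over all libraries of days 4 to 12, and leaving out each library in turn gave 0 (day 5 pleuropodia, day 5 or day 6 legs) to 148 (day 4 pleuropodia), the settings with 0 by limma having 269 to 705 at an unadjusted p under 0.05. In no setting did 6-phosphofructo-2-kinase or phosphoenolpyruvate carboxykinase pass at days 4-6. At days 7-9 leaving out 1 library gave 3246 (day 8 pleuropodia) to 4140 transcripts, in place of 5114. The tissue difference changed between these periods for 3351 transcripts with day as a replicate block and for 1010 without the day 8-9 libraries of both tissues, in place of 2152, and for 939 (day 8 pleuropodia) to 3297 (day 6 pleuropodia) without 1 library. Within pleuropodia leaving out 1 library gave 3519 to 5992 transcripts, and within legs 0 (day 8 or day 8-9 legs) to 390 (day 6 pleuropodia), with 0 by limma without the day 8-9 pair, where 990 had an unadjusted p under 0.05, in place of 185. At days 10-12 it gave 2457 (day 11 legs) to 6220 (day 12 legs) transcripts, in place of 5219. The cause of these shifts was not tested, beyond the smaller number of libraries in the fits that leave some out. The pleuropodia change of phosphoenolpyruvate carboxykinase, which does not pass, ran from -0.066 to 0.94 without 1 library and was negative only without the day 6 pleuropodia.

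The RPKM as deposited, with no scaling for composition, moved the median of all transcripts from 0.01 to -0.55 at days 10-12 and from -0.05 to -0.32 at days 7-9. At days 10-12 it gave log2 fold changes of 8.79 for the myrosinase 1-like transcript, 9.98 for alpha-N-acetylgalactosaminidase and 3.76 for 6-phosphofructo-2-kinase. Every direction of a tissue difference among the 4 transcripts held under it. Over the single transcripts' alternatives, 266 of the values stayed the same, 5 came to pass, 1 ceased to pass, 3 moved by more than 1 residual SD and 1 reversed. Before days 10-12 the same meant the same direction and side of the threshold. At days 10-12 no threshold was used, and it meant the same direction with a shift under 1 residual SD. The block is not estimable for the changes within a tissue, where day and period coincide, and it changed no call of the 4 transcripts elsewhere. With 10 reads or fewer, depth limits the ratios. In legs this held for both glycosidases before day 6 and on day 8-9, and for the myrosinase 1-like transcript on days 7 and 8 as well.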
